A study of Mus musculus with 31 samples.

Results

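Floxed and control thymocyte cultures were compared on day 4, before any Cre was switched on, to find which genes already differed between the lines ahead of the deletion that the study was built to induce. The comparison holds 8 of the 31 libraries of the series, all those of the thymocyte cultures labelled day 4, and was read on chromosomes 1 to 19. Floxed cells carried R26-CreERT2, a Cre recombinase that works only once 4-hydroxytamoxifen (4-OHT) is given, R26-stop-tdTomato, a red reporter that Cre switches on, and the alleles E2Af/f and HEBf/f. Control cells carried R26-CreERT2 and R26-stop-tdTomato without those alleles. The strain of all mice is given as C57BL/6, and no age or sex is given. Each genotype had 4 libraries, 2 from cultures begun with DN1 thymocytes and 2 with DN3 thymocytes, which are an earlier and a later stage before CD4 and CD8 appear. Both were grown with OP9-DL1, a stromal line that presents a Notch ligand, and with IL-2, IL-7 and SCF. Day 4 cells were taken unsorted, whereas on days 5 and 7, after 4-OHT on day 4, tdTomato-positive cells were sorted. For DN1 cells of day 7 the sample labels put 4-OHT on day 7, in conflict with the design text, which was followed. Replicate letters are a and b for floxed and c and d for control cultures, and nothing says whether they are separate animals, so the p-values measure the spread between these libraries.

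E2A (gene Tcf3) and HEB (gene Tcf12) are E proteins, basic helix-loop-helix factors that drive T cell genes in the thymus and are held in check by Id proteins. A floxed allele carries loxP sites around an exon and is meant to work as the normal gene until Cre cuts it out. Lines made and bred separately can nevertheless differ elsewhere: next to the targeted gene, where DNA of the embryonic stem cell donor strain can remain, and at unlinked sites that drifted or came in with a cross. Ribosomal protein genes matter here because mammalian genomes hold many processed pseudogenes of them, intronless copies made by reverse transcription of the messenger RNA. Such a copy can be nearly identical to its source gene, so that a change of a single base can move a read from one gene to another in a count table.

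Libraries of day 4 held 6510587 to 10692186 counts. Sex went with genotype: Xist, the RNA that coats the inactive X of females, was at 588 to 1399 CPM (counts scaled to a library total of 1000000) in floxed and 10.8 to 71.4 in control libraries. The Y-linked Ddx3y was at 2.22 to 14.2 CPM in floxed and 45.1 to 76.3 in control libraries. Genotype and sex cannot be told apart in the cultures, which is why the X and Y chromosomes, with 6 further genes called, were left out of the list below. Stromal markers (20 genes such as Col1a1 and Sparc) summed to 11098 and 12689 CPM in DN1 floxed, 15259 and 14347 in DN1 control, 5618 and 5028 in DN3 floxed and 3377 and 3683 in DN3 control libraries. After sorting they were 254 to 558 CPM. Stroma was therefore a little lower in floxed than control cultures of DN1 and higher in those of DN3, and a bulk value cannot separate fewer cells of a type from less RNA per cell. The stromal list includes Thy1, which is also among the T lineage markers used here and was at 77 to 354 CPM on day 4. Its part of the sums after sorting was not computed, so those sums need not be stromal RNA. With the day 4 stromal sum as a further covariate, the 24 genes described below were still called. Markers of T lineage precursors, the labelled cell type, summed to 1634 to 6599.7 CPM.

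No difference in the targeted genes passed the test on day 4. Tcf12 (chr9:71842688-72111871, minus strand) was at 211 and 195 CPM in DN1 floxed and 459 and 474 in DN3 floxed libraries, against 176 and 167 in DN1 control and 504 and 489 in DN3 control libraries. Its difference, floxed minus control on the log2 scale with its standard error, was 0.098 ± 0.078 (edgeR quasi-likelihood test, adjusted p = 0.98). Tcf3 (chr10:80409514-80433647, minus strand) was at 64.1 and 45.9 CPM in DN1 floxed and 92.4 and 50.3 in DN3 floxed libraries, against 62.8 and 66.8 in DN1 control and 87.1 and 106 in DN3 control libraries. Its difference was -0.31 ± 0.17 (adjusted p = 0.925), and the genotypes overlapped for both genes. By day 7 both were lower in the floxed libraries, with differences of -1.51 ± 0.098 for Tcf12 (adjusted p = 4.63e-05) and -1.84 ± 0.29 for Tcf3 (adjusted p = 0.00273), and the change since day 4 was itself past the threshold for each (-1.58 ± 0.10, adjusted p = 5.45e-08, and -1.51 ± 0.36, adjusted p = 0.00647). Counts cover whole genes, including exons outside the floxed part, so they need not reach 0.

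Few other genes separated the genotypes, and most of those that did were ribosomal protein genes or their copies. With precursor as covariate, 24 of 13626 tested autosomal genes passed an adjusted p of 0.05 (0.176% of those tested), 13 higher in floxed cells (0.0954%) and 11 lower (0.0807%). An unadjusted p under 0.05 was reached by 756. The 4 floxed and 4 control libraries did not overlap for 20 of the 24, against 200 of all 13626 genes (1.47%, with 0.565% higher and 0.903% lower in floxed cells). A pseudogene is what the annotation calls 12 of the 24 (50%), against 7.9% of tested genes. A ribosomal protein gene, or a gene with at least 90% identity to one over at least 50% of either transcript, makes up 14 of the 24 (58.3%), against 4.26% of tested genes. Seen from the other side, 2.41% of the 581 tested genes of that kind were called. The number called moved with single libraries of both genotypes. Among floxed libraries it was 34 without DN1 a, 16 without DN1 b, 20 without DN3 a and 21 without DN3 b, with 20, 13, 17 and 16 of the 24 genes among them. Among controls it was 15 without DN1 c, 13 without DN1 d, 12 without DN3 c and 15 without DN3 d, with 15, 13, 12 and 14 of the 24.

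Rpl29, a protein of the large ribosomal subunit, and 5 of its copies moved in opposite directions. The source gene and the pseudogene Gm10709 were lower in floxed cells, while the pseudogenes Gm14036, Gm15454, Gm13841 and Rpl29-ps5 were higher. How alike they are is shown by a stretch of the Rpl29 coding sequence, bases 188 to 247 counted from the start codon, read 5′ to 3′ from GENCODE M21 (mm10), with bases that differ between these 3 transcripts in capitals.
Rpl29: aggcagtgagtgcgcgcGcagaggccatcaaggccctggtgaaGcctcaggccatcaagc
Gm10709: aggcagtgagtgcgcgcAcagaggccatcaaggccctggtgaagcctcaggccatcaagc
Gm14036: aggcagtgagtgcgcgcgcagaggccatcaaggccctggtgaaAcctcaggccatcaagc
Rpl29 lies at chr9:106429454-106431568, plus strand, Gm10709 at chr9:7751725-7752204, plus strand and Gm14036 at chr2:134803949-134804428, plus strand, inside the gene Plcb1. Over the aligned coding stretch Gm10709 differed from Rpl29 at 4 of 480 bases, Gm14036 at 3 of 477, Gm15454 at 4 of 480 and Gm13841 at 3 of 480. In the 60 bases shown, Gm15454 and Gm13841 hold the same letters as Rpl29. How reads that match several places were counted is not given in the sources used here, so which of these genes a read came from is uncertain.

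Rpl29 was at 136 and 123 CPM in DN1 floxed and 88.1 and 85.8 in DN3 floxed libraries, against 215 and 224 in DN1 control and 263 and 228 in DN3 control libraries. Every floxed library lay below every control library, and the difference was -1.10 ± 0.13, adjusted p = 0.00663. Gm10709 was at 25.7 and 22.1 CPM in DN1 floxed and 11.4 and 12.2 in DN3 floxed libraries, against 57.7 and 56.4 in DN1 control and 64.4 and 59.7 in DN3 control libraries, again without overlap (-1.76 ± 0.20, adjusted p = 0.00432). Both were lower still in DN3 than in DN1 floxed cells. Gm14036 went the other way, with 75.4 and 73.2 CPM in DN1 floxed and 125 and 113 in DN3 floxed libraries, against 5.72 and 2.85 in DN1 control and 2.46 and 11.6 in DN3 control libraries (4.07 ± 0.29, adjusted p = 0.000149), the largest difference of the 24. Mean levels over the 4 libraries were 96.4 ± 26 CPM (SD, n = 4) in floxed and 5.66 ± 4.22 in control cells. Gm13841 (chr5:115801677-115802159, minus strand) was at 11.5 and 10.6 CPM in DN1 floxed and 14.6 and 13.6 in DN3 floxed libraries, against 4.41 and 3.71 in DN1 control and 5.99 and 5.5 in DN3 control libraries (1.39 ± 0.15, adjusted p = 0.00323). Gm15454 (chr1:134518081-134518563, plus strand) spanned 5.61 to 8.84 CPM in floxed and 1.71 to 3.23 in control libraries (1.58 ± 0.21, adjusted p = 0.0109), and its call was lost without DN1 control d or DN3 control c (adjusted p up to 0.0663). Rpl29-ps5, on chromosome 18, spanned 1.59 to 4.66 against 0.239 to 0.614 CPM (3.004 ± 0.41, adjusted p = 0.0142). Without any of 6 libraries, all but DN1 floxed a and DN3 floxed a, it no longer passed (adjusted p up to 0.0823). None of these copies overlapped between the genotypes on day 4.

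Summed over Rpl29 and its near-copies that passed the day 4 count filter, 21 genes in all, the difference was much smaller than in the single genes. Rpl29 has 72 near-copies in the annotation, and those below the filter are not in the sum. The sum was 288 CPM in floxed libraries (275 to 298) and 358 in control libraries (333 to 398), a ratio of 0.803. The genotypes still did not overlap in the sum. On days 5 and 7 the ratio was 0.792 and 0.847.

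**Figure D1:**
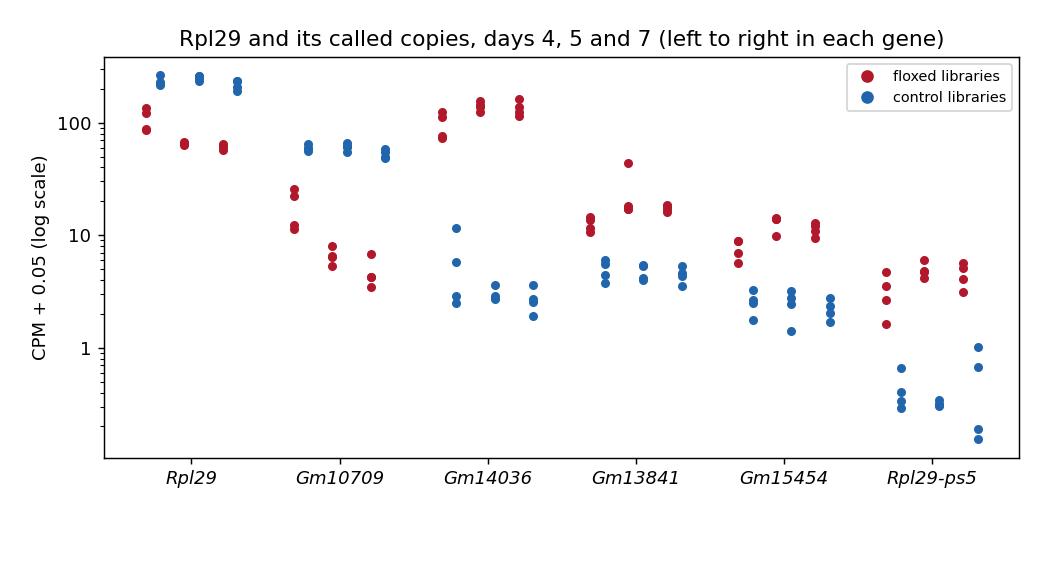
Rpl29 and its 5 called copies in all 24 culture libraries. The y axis is CPM + 0.05 on a log scale, each point is 1 library, and for each gene the columns from left to right are days 4, 5 and 7, floxed in red and control in blue. Rpl29 and Gm10709 are lower in all floxed libraries and the other 4 higher, and no gene overlaps between the genotypes on any day.

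Genes of the small ribosomal subunit formed 2 further families, Rps3a and Rps13, again with copies that differ by a few bases. For Rps3a, coding bases 628 to 687 of Rps3a1 are shown with those of its 2 called copies, and capitals mark the bases that differ. The second pair is Rps13 with Rps13-ps1 at coding bases 390 to 449.
Rps3a1: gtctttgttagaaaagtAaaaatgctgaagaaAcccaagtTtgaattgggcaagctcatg
Rps3a2: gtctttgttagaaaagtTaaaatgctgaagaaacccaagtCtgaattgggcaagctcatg
Rps3a3: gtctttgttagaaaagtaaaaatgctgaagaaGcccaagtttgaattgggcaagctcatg
Rps13: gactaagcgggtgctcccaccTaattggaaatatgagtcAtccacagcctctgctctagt
Rps13-ps1: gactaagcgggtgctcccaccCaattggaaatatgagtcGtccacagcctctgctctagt
Rps3a2 (chr14:88123017-88123808, minus strand) differed from Rps3a1 (chr3:86137940-86142702, minus strand) at 4 and Rps3a3 (chr13:108670603-108671397, plus strand, inside Pde4d) at 9 of 792 bases. Rps13-ps1 (chr8:87047689-87048226, plus strand) differed from Rps13 (chr7:116331505-116334195, minus strand) at 2 of 453.

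Rps3a2 was higher and Rps3a3 lower in floxed cells, with no overlap for either. Rps3a2 was at 614 and 622 CPM in DN1 floxed and 928 and 1019.8 in DN3 floxed libraries, against 359 and 348 in DN1 control and 507 and 573 in DN3 control libraries (0.85 ± 0.062, adjusted p = 0.000149). Rps3a3 was at 303 and 314 CPM in DN1 floxed and 217 and 226 in DN3 floxed libraries, against 487 and 481 in DN1 control and 418 and 439 in DN3 control libraries (-0.78 ± 0.070, adjusted p = 0.000959). Rps3a1 itself was higher by a smaller amount (0.38 ± 0.055, adjusted p = 0.0184), with 1999 to 2706 CPM in floxed and 1613 to 2132 in control libraries, which overlap. Its call was lost without any of 5 libraries, DN1 floxed b or any of the 4 controls (adjusted p up to 0.0967). The Rps3a family, 8 tested genes summed, was at 3619.6 CPM in floxed (3139 to 4163) against 2926 in control libraries (2657 to 3368), which overlap. The ratio of these means was 1.24 on day 4, 1.18 on day 5 and 0.98 on day 7. Rps13-ps1 was at 475 and 432 CPM in DN1 floxed and 677 and 629 in DN3 floxed libraries, against 224 and 217 in DN1 control and 241 and 283 in DN3 control libraries (1.20 ± 0.081, adjusted p = 0.000149). Its source gene Rps13 did not pass (-0.37, adjusted p = 0.208), with a mean of 484 CPM in floxed and 643 in control libraries. The 6 tested genes of the Rps13 family summed to 1549.5 CPM in floxed libraries and 1487 in control libraries, and the libraries of the genotypes overlapped in that sum.

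The other 5 called copies belong to Rplp0 and Rplp1, proteins of the ribosomal stalk, to Rps15a of the small subunit, and to Cdk2ap1, a partner of the kinase CDK2. Gm8730 (98.7% identical to Rplp0) was at 143 to 166 CPM in floxed and 189.6 to 274 in control libraries (-0.50 ± 0.082, adjusted p = 0.0433). Gm9625 (97.4% identical to Rplp0) was at 39.4 to 50.6 against 80.7 to 132 CPM (-1.11 ± 0.15, adjusted p = 0.0128). Both were lower in all 4 floxed libraries than in any control, while Rplp0 itself had a difference of 0.092 (adjusted p = 0.959). Rps15a-ps4 (97.4% identical to Rps15a) was at 12.7 to 17.9 CPM in floxed and 19.4 to 33.5 in control libraries, again without overlap (-0.77 ± 0.11, adjusted p = 0.0184). Gm17511 (95% identical to Rplp1) was higher by 0.54 ± 0.083, adjusted p = 0.0313, with 86.7 to 144 CPM in floxed and 65.1 to 104 in control libraries, which overlap. Gm12184 is annotated as protein coding, is 99.4% identical to Cdk2ap1 and was at 24.9 and 19.3 CPM in DN1 floxed and 21.1 and 20.5 in DN3 floxed libraries, against 42.6 and 43.9 in DN1 control and 64 and 55.6 in DN3 control libraries (-1.22 ± 0.14, adjusted p = 0.00432). Cdk2ap1 differed by 0.15 (adjusted p = 0.82). Without single libraries, Gm8730 was lost for all but DN1 floxed a (adjusted p up to 0.184), Rps15a-ps4 for all but DN1 floxed a (0.0994), Gm17511 for all but DN3 floxed b (0.251) and Gm9625 without DN1 floxed b alone (0.051).

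Of the genes outside these families, 5 were higher in floxed cells. Gdpd3, an enzyme that cleaves lysophospholipids (chr7:126766334-126775649, plus strand), was low in controls and several-fold higher in floxed cultures. It was at 16.7 and 9.51 CPM in DN1 floxed and 28.6 and 31.8 in DN3 floxed libraries, against 3.22 and 1.71 in DN1 control and 1.23 and 3.35 in DN3 control libraries. The difference was 3.09 ± 0.34, adjusted p = 0.00344, the largest among the called genes without a near-copy. Rap1gap2, an activator of GTP hydrolysis by the small GTPase Rap1 (chr11:74383356-74610915, minus strand), was at 24 and 24.4 CPM in DN1 floxed and 27.6 and 29.1 in DN3 floxed libraries, against 16.1 and 13.1 in DN1 control and 7.37 and 9.33 in DN3 control libraries (1.24 ± 0.20, adjusted p = 0.0418). Neither gene overlapped between the genotypes. The long noncoding 5830418P13Rik (chr9:103423578-103461260, plus strand), antisense to Bfsp2, was at 40.8 and 58.8 CPM in DN1 floxed and 29.4 and 36.8 in DN3 floxed libraries, against 16.2 and 18.8 in DN1 control and 18.6 and 18.8 in DN3 control libraries (1.19 ± 0.17, adjusted p = 0.0167). Bfsp2 was too low to be tested, and without stated strand information reads of such a pair cannot be told apart. Bcl2l12, a relative of the BCL2 survival proteins (chr7:44991222-44998712, minus strand), was at 9.82 and 12.1 CPM in DN1 floxed and 13.3 and 10.9 in DN3 floxed libraries, against 3.7 and 6.42 in DN1 control and 5.53 and 5.74 in DN3 control libraries (1.13 ± 0.19, adjusted p = 0.0433). It overlaps Irf3 on the other strand, whose difference was 0.27 ± 0.15 (adjusted p = 0.936). Rell1, a binding partner of the TNF receptor family member RELT (chr5:63908897-63968897, minus strand), was higher by 0.58 ± 0.096, adjusted p = 0.0433, but its libraries overlapped because both genotypes had more of it in DN3 than in DN1. Within DN1 it was at 30.1 and 31.4 CPM in floxed against 20.6 and 24.4 in control libraries, and within DN3 at 55.5 and 53.7 against 34.4 and 35.4.

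Gdpd3 passed under every alternative tried for the day 4 comparison, including every single library left out (adjusted p up to 0.0257). Rap1gap2 was lost without any of 6 libraries, all but DN1 floxed a and DN1 control c (adjusted p up to 0.189). 5830418P13Rik was lost without DN1 control c, DN1 control d, DN3 floxed b or DN3 control c (up to 0.101). Bcl2l12 and Rell1, at adjusted p = 0.0433 each, were lost without any single library (up to 0.209 and 0.3).

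Lower in floxed cells were 4 genes outside the families. Fbp1, a fructose-1,6-bisphosphatase of gluconeogenesis (chr13:62864753-62888282, minus strand), was at 3.37 and 4.6 CPM in DN1 floxed and 4.03 and 2.87 in DN3 floxed libraries, against 11.2 and 11.4 in DN1 control and 13.8 and 12.8 in DN3 control libraries (-1.71 ± 0.18, adjusted p = 0.00323). The mean was 3.71 ± 0.758 CPM (SD, n = 4) in floxed and 12.3 ± 1.23 in control libraries. 1190007I07Rik (chr10:82619851-82623228, minus strand) is protein coding and was at 19 and 14.9 CPM in DN1 floxed and 12.6 and 7.4 in DN3 floxed libraries, against 37.1 and 36 in DN1 control and 48.1 and 46.4 in DN3 control libraries (-1.62 ± 0.23, adjusted p = 0.0167). Gm29666 (chr15:84910438-84920038, minus strand), also annotated as protein coding, was at 5.61 and 3.22 CPM in DN1 floxed and 2.91 and 3.34 in DN3 floxed libraries, against 13.2 and 10.8 in DN1 control and 14.4 and 14.6 in DN3 control libraries (-1.76 ± 0.23, adjusted p = 0.0102). These 3 genes did not overlap between the genotypes, and each was lower in floxed cells of both precursors. Plekha7, a protein of adherens junctions (chr7:116123485-116308376, minus strand), was at 20.6 and 26.5 CPM in DN1 floxed and 8.19 and 5.49 in DN3 floxed libraries, against 41 and 43.8 in DN1 control and 11.8 and 15.2 in DN3 control libraries (-0.89 ± 0.14, adjusted p = 0.0403). Its level was higher in DN1 than in DN3 cultures of either genotype, which is why the genotypes overlap over the 8 libraries while separating within each precursor. Fbp1 and Gm29666 passed with every library left out (adjusted p up to 0.0219 and 0.0476). 1190007I07Rik was lost without DN1 floxed b, DN3 floxed a, DN3 control c or DN3 control d (up to 0.0788), and Plekha7 without any library but DN3 floxed a (up to 0.188). Plekha7 also did not pass in a fit of all 24 culture libraries (0.358). 1190007I07Rik and Gm29666 have 2 near-copies each by the definition above, so which gene their reads came from is uncertain.

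**Figure D2:**
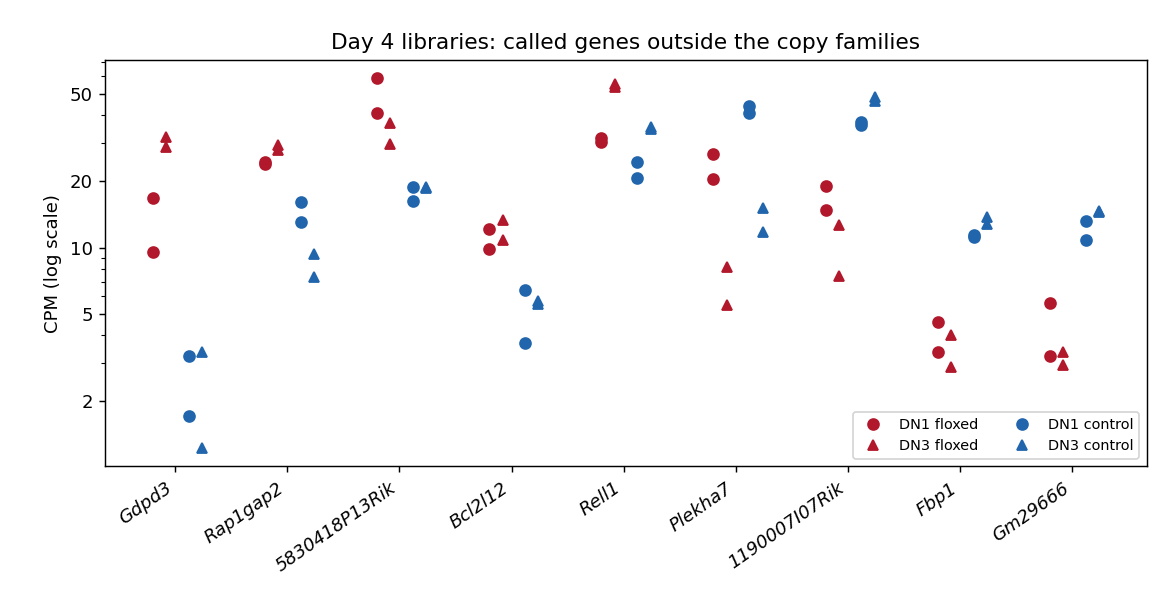
The 9 called genes outside the ribosomal protein and Cdk2ap1 families in the 8 day 4 libraries. The y axis is CPM on a log scale, circles are DN1 and triangles DN3 libraries, red floxed and blue control. Gdpd3, Rap1gap2, 5830418P13Rik and Bcl2l12 are higher and 1190007I07Rik, Fbp1 and Gm29666 lower in all 4 floxed libraries, while Rell1 and Plekha7 separate only within a precursor.

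By annotated position the called genes were spread over the genome rather than gathered at the modified loci. A near-copy in another gene was found for 17 of the 24 (70.8%), against 28% of tested genes, so their reads may come from elsewhere. Chromosomes 6, 12, 16, 17 and 19 held none of them, and there were 4 of 1052 tested genes on chromosome 7, 3 of 819 on chromosome 9 and 3 of 529 on chromosome 13. With pseudogenes left out these were 3, 2 and 1. Within 20 Mb of Tcf3 1 of 306 tested genes was called, 1190007I07Rik, which starts 2.19 Mb from Tcf3. Near Tcf12, which lies on chromosome 9, 0 of 264 tested genes within 20 Mb were called by edgeR (15 at an unadjusted p under 0.05) and 0 by DESeq2. Around Gt(ROSA)26Sor on chromosome 6, the locus of both R26 alleles, 0 of 212 were called by edgeR (10 unadjusted) and 0 by DESeq2, though both genotypes carry those alleles. The share of genes at an unadjusted p under 0.05 was 5.91% within 5 Mb of Tcf3, 9.23% within 5 Mb of Tcf12 and 3.08% within 5 Mb of Gt(ROSA)26Sor, against 5.55% of all tested genes.

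Besides 1190007I07Rik, 3 more genes between Tcf3 and that gene had an unadjusted p under 0.05 and were lower in all floxed than in all control libraries, without passing. They are the zinc finger gene Zfp433 (1.27 Mb from Tcf3; -1.26 ± 0.35, adjusted p = 0.452), Gm8249 (1.28 Mb; -1.44 ± 0.48, adjusted p = 0.664) and Gm10778 (1.22 Mb; -0.84 ± 0.30, adjusted p = 0.716), and they were picked out after their values were seen. Plekhj1, 0.36 Mb from Tcf3, was higher in all floxed libraries, also without passing (0.44 ± 0.13, adjusted p = 0.511). The 3 lower genes had at most 3.96 CPM on average in either genotype. Within 20 Mb of Tcf12 the tested gene with the largest difference was Myzap, 0.25 Mb away, at 0.645 against 5.34 CPM (-2.47 ± 0.85, adjusted p = 0.693), whose genotypes overlapped. Pairs of called genes within 5 Mb of each other were Gdpd3 and Gm17511, 0.51 Mb apart on chromosome 7, Rpl29 and 5830418P13Rik, 2.97 Mb apart on chromosome 9, and Fbp1 and Gm9625, 4.92 Mb apart on chromosome 13. Plekha7 lies 0.02 Mb from Rps13, the source gene of Rps13-ps1. Within 1 Mb of Gdpd3 69 other genes were tested and 1, Gm17511, was called.

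**Figure D3:**
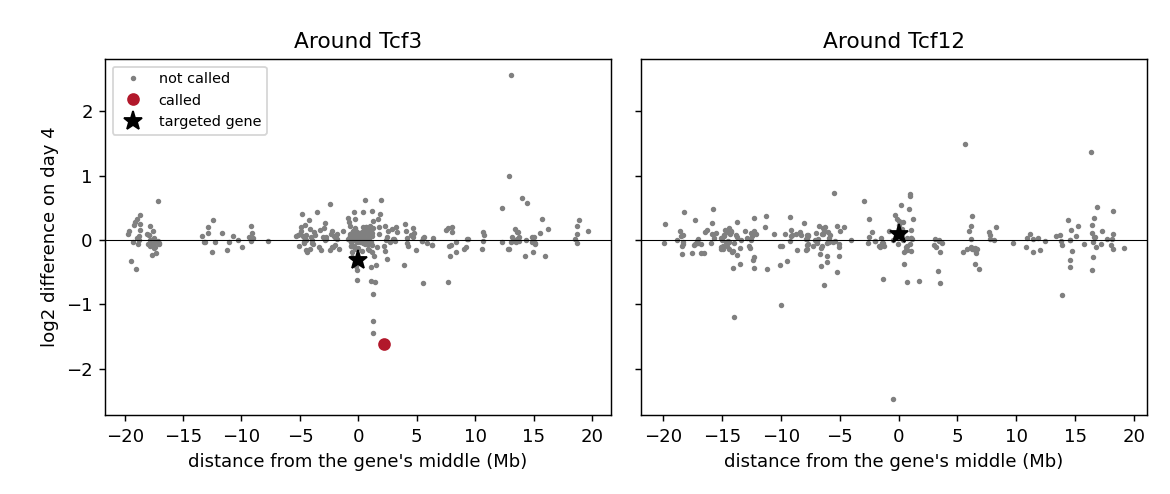
Day 4 log2 differences, floxed minus control, of all tested genes within 20 Mb of Tcf3 (left) and Tcf12 (right), against the distance from the middle of the targeted gene in Mb. The star is the targeted gene and the red point the 1 called gene, 1190007I07Rik, at -1.62.

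For some genes the day 4 difference between genotypes was not the same in both precursors. In DN1 alone 19 of 13626 autosomal genes were called (0.139%) and in DN3 alone 212 (1.56%). These cultures were unsorted, and stromal sums were lower in floxed than control cultures of DN1 but higher in those of DN3. The part of stromal RNA in the counts of this paragraph was not tested. Of the 24 genes, 11 passed in DN1, 6 higher (0.103% of tested genes) and 5 lower (0.0367%). In DN3, 21 passed, 11 higher (1.22%) and 10 lower (0.338%), and all 24 had the same sign in both. The difference between the precursors was itself tested, and 210 autosomal genes passed it (1.54%), 21 with a higher value in DN1 than in DN3 (0.154%) and 189 with a lower one (1.39%). Only Rpl29 (0.72 ± 0.15, adjusted p = 0.0413) and Gm10709 (1.13 ± 0.20, adjusted p = 0.0249) of the 24 did, both with the larger deficit in DN3. Their tests of the difference were lost without DN1 floxed a or any of the 4 control libraries (adjusted p up to 0.218 and 0.163). These counts moved with single libraries. That in DN1 was 87 without DN1 floxed b, 56 without DN3 floxed a or b, 11 without DN3 control c or d, 1 without DN1 control c and 0 without DN1 control d (edgeR; 739 at an unadjusted p under 0.05, and 11 by DESeq2). That in DN3 was 626 without DN3 floxed a, 97 and 98 without DN1 control c and d, 28 without DN3 control c and 37 without DN3 control d. The count for the difference between precursors was 554 and 343 without DN3 floxed a and b, 18 without DN1 floxed a, 5 and 15 without DN1 control c and d, 28 without DN3 control d and 0 without DN3 control c (edgeR; 1392 unadjusted, and 97 by DESeq2).

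Napsa and Aldh2, leading genes named for the comparison, had the larger day 4 difference in DN3. Napsa encodes napsin A, an aspartic protease (chr7:44572380-44586862, plus strand), and lies 0.4 Mb from Bcl2l12. It was at 85.2 and 64 CPM in DN1 floxed and 0.555 and 2.27 in DN3 floxed libraries, against 125 and 155 in DN1 control and 27.3 and 29.2 in DN3 control libraries. All floxed libraries lay below the controls of the same precursor, with a difference of -0.88 ± 0.20 in DN1 (adjusted p = 0.187) and -4.22 ± 0.35 in DN3 (adjusted p = 0.000166). The precursors differed (3.34 ± 0.42, adjusted p = 0.00633), and the pooled difference of -1.76 ± 0.45 did not pass (adjusted p = 0.348). Aldh2, the mitochondrial aldehyde dehydrogenase that oxidises acetaldehyde (chr5:121566027-121593824, minus strand), was at 136 and 137 CPM in DN1 floxed and 109 and 122 in DN3 floxed libraries, against 125 and 114 in DN1 control and 35.2 and 39.8 in DN3 control libraries. In DN1 the difference was 0.21 ± 0.10, adjusted p = 0.622, and in DN3 it was 1.65 ± 0.11, adjusted p = 6.28e-05. The precursors again differed (-1.45 ± 0.15, adjusted p = 0.00282) and the pooled value did not pass (0.89 ± 0.24, adjusted p = 0.39). Without DN3 control c neither test of the difference between precursors passed (Napsa 0.0658, Aldh2 0.0576), and without DN1 control c that of Napsa did not (0.0616).

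Stromal markers were also higher in DN3 floxed than in DN3 control cultures on day 4, as given above. On days 5 and 7, in sorted cells with stromal sums of 254 to 558 CPM, DN3 Aldh2 was at 118 and 143 CPM in floxed against 28.6 and 21.8 in control libraries on day 5, and 73.8 and 60.8 against 27.6 and 33 on day 7. Napsa in DN3 was at 2.6 and 2.6 against 24.7 and 18.7 on day 5 and 9.31 and 5.55 against 76.7 and 74.9 on day 7. The genotypes did not overlap in DN3 for either gene on these days, with 2 libraries on each side. No test was made within DN1 or DN3 on days 5 and 7, and the part of stromal RNA in the day 4 difference was not tested. In DN1, Aldh2 went from 136 and 137 CPM in floxed against 125 and 114 in control libraries on day 4 to 143 and 131 in floxed against 76.8 and 83.7 in control libraries on day 5. The change of its pooled difference from day 4 to day 5 passed (0.60 ± 0.14, adjusted p = 0.0332). On day 7 Aldh2 in DN1 was at 157 and 124 CPM in floxed against 99.1 and 95.7 in control libraries. Napsa in DN1 was at 162 and 105 CPM in floxed against 274 and 297 in control libraries on day 5. On day 7 it was at 131 and 112 against 371 and 389 CPM. Within DN1, too, the genotypes did not overlap for either gene on these days, again with 2 libraries on each side. The share of all genes without overlap at 2 against 2 libraries was not computed, so these separations cannot be weighed.

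**Figure D4:**
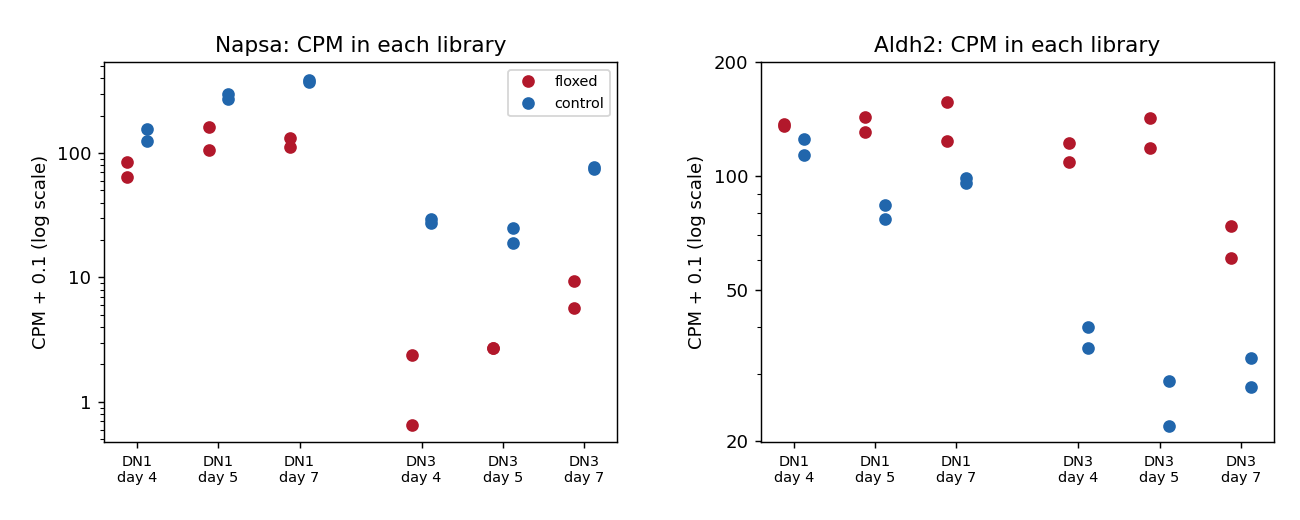
Napsa (left) and Aldh2 (right) in the 24 culture libraries, by precursor and day. The y axis is CPM + 0.1 on a log scale, each point is 1 library, red floxed and blue control. Within each precursor the floxed libraries lie below the controls for Napsa and above them for Aldh2 on all 3 days.

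The day 4 differences were still there after 4-OHT. Day 5 and day 7 libraries are separate libraries, with deletion added, and the sign was kept by 24 of the 24 genes on both days. They carry the same letters a to d, and nothing says whether a letter marks the same animals or cultures over days. The days therefore need not be independent of each other. On day 5, 22 of the 24 passed, against 1289 of 12547 autosomal genes (10.3%), and they were 12 higher (5.54%) and 10 lower (4.73%). On day 7, 22 passed again, against 2571 of 13085 (19.6%), 11 higher (10.5%) and 11 lower (9.12%). Rps3a1 (adjusted p = 0.0536) and Plekha7 (0.0571) did not pass on day 5, nor Rps3a1 (0.533) and Rell1 (0.156) on day 7. The genotypes did not overlap on any of the 3 days for 20 genes, the same 20 of the 24 that did not overlap on day 4. The share of all tested genes without overlap was computed for day 4 only (1.47%), the day on which the 24 were chosen. The median size of the 24 differences was 1.20 on day 4, 1.65 on day 5 and 1.84 on day 7 (log2, without sign), with 20 of the 24 larger on day 5 than on day 4 and 18 larger on day 7. Stromal sums were 3377 to 15259 CPM in the unsorted cells of day 4 and 254 to 558 CPM in the sorted cells of days 5 and 7, and their part in the larger differences was not tested.

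The change itself passed for 4 of the 24 genes between days 4 and 5 (2% of all autosomal genes), all 4 downwards (1.07%, with 0.927% upwards). Between days 4 and 7 it passed for 10 (15.4%), 5 upwards (7.87%) and 5 downwards (7.57%), and 9 of these changes were away from 0. Fbp1 moved most. Control libraries were at 11.2 to 13.8 CPM on day 4, 17.1 to 26 on day 5 and 17.9 to 23.8 on day 7. Floxed libraries were at 2.87 to 4.6 CPM on day 4 and 1.12 to 2.85 on day 5, and on day 7 at 0 counts in 3 of 4 libraries, where 3 counts would be 0.386 to 0.508 CPM, and 1.33 CPM in DN1 floxed b. The change of its difference was -1.74 ± 0.42, adjusted p = 0.0403 by day 5 and -5.87 ± 0.74, adjusted p = 3.26e-05 by day 7, and the size of the latter depends on the prior count of the fit. Rps3a3 was at 217 to 314 CPM in floxed libraries on day 4 and 111 to 139 on day 5, while controls were at 418 to 487 and 356 to 426 (change of the difference -0.87 ± 0.12, adjusted p = 0.000447). Rpl29 in floxed cells was at 85.8 to 136 CPM on day 4 and 62.6 to 66.7 on day 5 (-0.88 ± 0.096, adjusted p = 5.75e-05), and Gm10709 at 11.4 to 25.7 and 5.24 to 8.04 (-1.46 ± 0.18, adjusted p = 0.000269). For Rps3a3, Rpl29 and Gm10709 the DN3 floxed libraries lay below the DN1 floxed libraries on day 4, and the ranges of the precursors overlapped on day 5.

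Gdpd3 in floxed cells was at 17.6 and 14.7 CPM in DN1 and 52 and 55.4 in DN3 on day 5, and at 43.7 and 32.5 in DN1 and 67.2 and 48.5 in DN3 on day 7. Controls were at 0.886 to 1.89 CPM on day 5 and 0.874 to 3.54 on day 7. Its difference grew by 1.52 ± 0.42, adjusted p = 0.0178 from day 4 to day 7. Rap1gap2 in floxed cells was at 22.5 to 40.4 CPM on day 5 and 31.1 to 44.9 on day 7, against 5.25 to 11 and 8.61 to 13.4 in controls (change by day 7 0.68 ± 0.21, adjusted p = 0.0338). Gm14036 (1.69 ± 0.38, adjusted p = 0.00457), Rps13-ps1 (0.49 ± 0.094, adjusted p = 0.00136) and Gm17511 (0.68 ± 0.16, adjusted p = 0.00619) also grew by day 7. Rps3a1 went towards 0 (-0.28 ± 0.091, adjusted p = 0.0441). For 1190007I07Rik the change did not pass by day 5 (-0.37 ± 0.30, adjusted p = 0.645) or day 7 (-0.34 ± 0.31, adjusted p = 0.533), and its floxed libraries stayed at 12.3 to 15.5 and 2.53 to 13.2 CPM against 53.4 to 58.9 and 33.6 to 48.8 in controls.

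**Figure D5:**
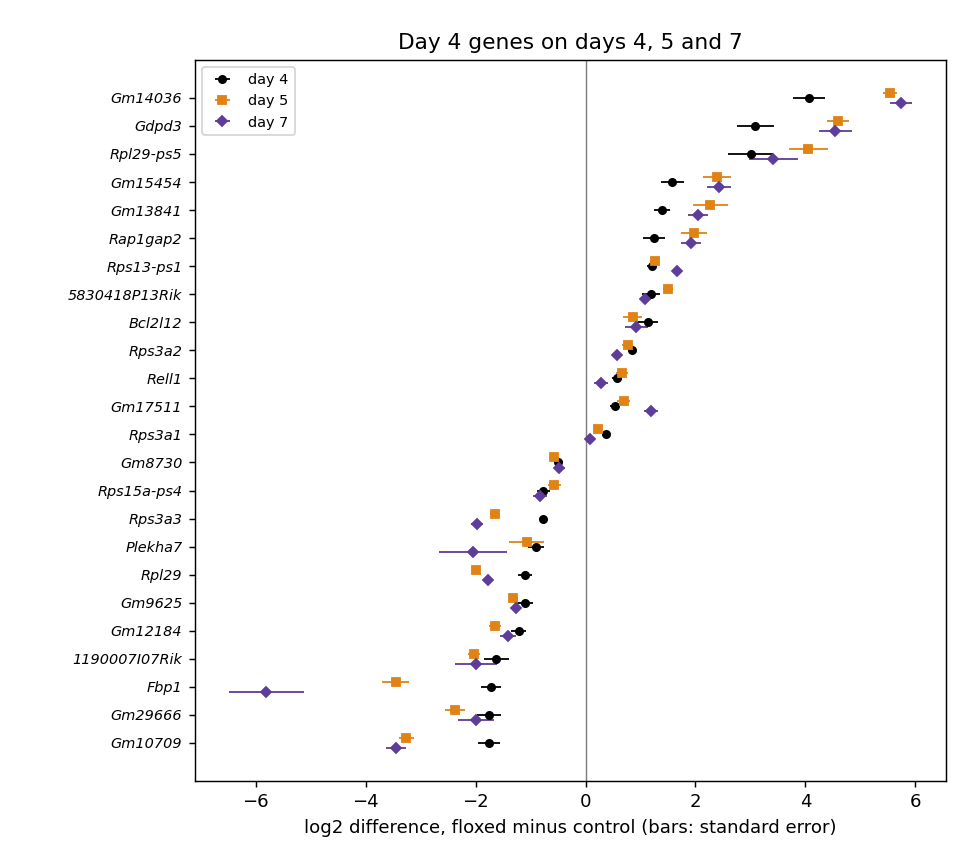
Log2 differences, floxed minus control, of the 24 genes called on day 4, on day 4 (black), day 5 (orange) and day 7 (purple). Each row is a gene and the bars are standard errors of the edgeR fits. All 24 stay on the same side of 0, from Gm14036 at 4.07, 5.53 and 5.74 to Gm10709 at -1.76, -3.26 and -3.45.

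Innate lymphoid cells (ILC2) of the same series gave a view in other mice, in which the floxed alleles E2Af/f and HEBf/f come with plck-Cre (called dKO) and are set against lung cells of mice with a plck-Id1 transgene and no floxed alleles. The labels of 2 of the 3 Id1 lung samples give plck-Id2 and plck-Id3 as genotype, and they were grouped by title. Deletion, transgene and line go together in that contrast and cannot be told apart. Sex was alike there: Ddx3y was at 159 and 107 CPM in dKO lung against 154, 54.1 and 163 in Id1 lung. Of the 24 genes 19 could be tested, 11 had the sign of day 4 and 3 passed in that direction, against 3340 of 18558 autosomal genes (18%), 2 of the 3 higher (14.2%) and 1 lower (3.75%). Gdpd3 was at 30.9 and 7.85 CPM in dKO lung against 1.3, 0 and 0.444 in Id1 lung (5.03 ± 1.21, adjusted p = 0.0283), where 3 counts in the library at 0 would be 0.31 CPM. Rps13-ps1 was at 55.4 and 19.8 CPM in dKO lung against 2.68, 9.31 and 3.02 in Id1 lung (2.74 ± 0.74, adjusted p = 0.0318). Rpl29 was at 3.38 and 5.68 CPM in dKO lung against 16.8, 36.6 and 19.5 in Id1 lung (-2.40 ± 0.73, adjusted p = 0.0466), and Gm14036 at 13 and 1.89 CPM in dKO lung against 0.612, 0.724 and 0.266 in Id1 lung, without overlap but short of the threshold (3.61 ± 1.26, adjusted p = 0.0726). Fbp1 could not be tested, and 1190007I07Rik (2.36 ± 1.15, adjusted p = 0.182) and Gm29666 (2.14 ± 0.98, adjusted p = 0.157) did not pass, with a sign opposite to day 4.

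The lung libraries limit this view. In dKO lung 3, 45% of the counts fell on 2 genes, Gm10800 and Gm21738, against 0.47% to 6.77% in the other 4. The number of called genes was 5499 without dKO lung 1, 177 without dKO lung 3, 1706 without Id1 lung 1 and 1966 without Id1 lung 3. Gdpd3 was lost without dKO lung 1 (adjusted p = 0.111), dKO lung 3 (0.0606) or Id1 lung 3 (0.0507). Rps13-ps1 was lost without any library but Id1 lung 2 (up to 0.134), and Rpl29 without any of the 5 (up to 0.173), with RLE scaling (0.081) and with the replicate number as a block (0.0962). In thymic dKO ILC2, which have no control, Gdpd3 was at 11.1 and 11.8 CPM, Rps13-ps1 at 43.2 and 33, and Gm14036 at 0 counts in both libraries, where 3 counts would be 0.529 and 0.623 CPM. The 0 is not particular to Gm14036. Rpl29 was at 1 and 2 counts in these libraries and Rpl29-ps5 at 1 and 0. Gm10709, Gm13841 and Gm15454 were at 0 counts in both.

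Apart from sex-linked genes, the gene lists compared held only 2 called genes on day 4. Of 10 testable glycerophosphodiesterases and lysophospholipid enzymes Gdpd3 alone was called, and of 17 Rap GTPase regulators Rap1gap2 alone. None of 14 aldehyde dehydrogenases, 12 endosomal proteases or 9 genes known to differ between C57BL/6 and the strain that many embryonic stem cell lines came from was called (edgeR, with 2 of each at an unadjusted p under 0.05, and 0 by DESeq2). Nnt, a gene of the last list in which the C57BL/6J substrain carries a deletion of a part, was at 21.2 CPM in floxed and 17.7 in control cells (0.29 ± 0.11, adjusted p = 0.777). Counts cover whole genes and, on day 4, stromal RNA as well, so they do not show which form of Nnt the mice carry. No marker of stroma (0 of 18 tested, 0 unadjusted), myeloid cells (0 of 11, 0 unadjusted), B cells (0 of 3, 0 unadjusted) or mast cells (0 of 3, 1 unadjusted) was called by edgeR, nor by DESeq2 among the autosomal ones. These tests pool the precursors, and stromal sums were lower in floxed than control cultures of DN1 but higher in those of DN3. A pooled test can miss such opposite differences, so the 0 for stroma does not mean equal stroma. Summed myeloid markers nevertheless stood at 529.8 CPM in DN1 floxed a, against at most 153 in the other DN1 libraries. Cell division genes (0 of 17, 1 unadjusted), interferon response genes (0 of 10, 0 unadjusted) and E protein and Id genes (0 of 9, 2 unadjusted) held none either, by edgeR or DESeq2.

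No gene of the T cell or ILC2 programs passed edgeR's test of the day 4 difference pooled over precursors. Of 18 T lineage genes none was called by edgeR, 2 were higher and 2 lower at an unadjusted p under 0.05, and DESeq2 called Cd3g, a chain of the T cell receptor complex (edgeR -0.56 ± 0.12, adjusted p = 0.159). Of 13 ILC2 genes none was called by edgeR or DESeq2, with 4 higher and 1 lower unadjusted. Zbtb16, the factor PLZF of innate lymphocytes, was the largest of these at 7.16 against 2.20 CPM (1.54 ± 0.37, adjusted p = 0.268). In DN1 it was at 13.4 and 13.5 CPM in floxed against 2.86 and 4.71 in control libraries, without overlap. In DN3 it was at 0.694 and 1.07 against 0.154 and 1.08 CPM, which overlap. Tests within a precursor are not given for these lists, so a difference in DN1 or DN3 alone can be missed here. Immediate early genes, which respond within minutes to handling or signals, had 7 of 11 higher at an unadjusted p under 0.05, where 438 of all 13626 autosomal genes were higher and 318 lower by the same criterion. None was called by either tool, with a median of 0.48 beside 0.019 for all autosomal genes. Among them Fos was at 216 against 127 CPM (0.75 ± 0.26, adjusted p = 0.691).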

How the data were processed

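RNA-seq of total RNA gave raw read counts per gene, which the authors deposited as count tables, per the file headers. The submitters' processing notes name mm10 and DESeq2. For the aligner, counter and strand setting, nothing is given in the sources used here, so reads of overlapping, antisense or near-identical genes cannot be assigned with certainty. The deposited gene identifiers were matched to GENCODE M21 (48664 of 48881).

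Counts were tested in R 4.3.3 with edgeR 4.0.16 (TMM scaling, filterByExpr with a minimum count of 10, quasi-likelihood test, Benjamini-Hochberg adjustment over all tested genes, threshold 0.05) with precursor and genotype as terms, and chromosomes 1 to 19 were read out. Day 4, 5 and 7 were fitted separately, the precursors in a fit with their interaction, changes over days in a fit of all 24 culture libraries, and lung in its own fit. The fit over days did not pair libraries by letter. CPM are counts scaled to a library total of 1000000. Near-copies were found with blastn 2.17.0 (at least 90% identity over at least 50% of either transcript) and aligned with mafft 7.526. No 2 libraries were identical. On simulated day 4 counts the fit recovered 98 of 100 genes changed by 1 on the log2 scale and 100 of 100 changed by 2, with 5 false calls among 13992 genes. The simulation gave every gene the same spread, changed both precursors alike and changed only genes above a minimum mean count. It does not show the recovery of genes with more spread, fewer counts or a difference that depends on precursor.

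Genes were to be named where they passed the test, reached 5 CPM in the higher genotype and did not overlap, up to 15 in each direction and without predicted genes and pseudogenes, together with called genes within 20 Mb of Tcf3, Tcf12 or Gt(ROSA)26Sor, and Napsa, Gdpd3, Rap1gap2, Aldh2, Tcf3, Tcf12, Xist and Ddx3y. Of the 24 called genes the rule names 6 (Gdpd3, Rap1gap2, Bcl2l12, Rpl29, Fbp1 and 1190007I07Rik), and the other 18 were named after their values were seen. The members and gene lists were chosen with earlier results of these data known. Alternatives were RLE scaling, no count filter, DESeq2 1.42.0, summed letters, limma 3.58.1 voom with the letter as block, all 24 culture libraries, adjustment over autosomes, a stromal covariate and leaving out each library.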

Additional observations from a re-analysis of the deposited data

Results flagged for a closer look

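Differences that themselves differed between precursors or days are listed here with the edgeR quasi-likelihood interaction and its adjusted p, and no explanation was tested. Between DN1 and DN3 on day 4 the genotype difference (DN1 minus DN3, log2) differed by 1.13 for Gm10709 (adjusted p = 0.0249), 0.72 for Rpl29 (0.0413), 3.34 for Napsa (0.00633) and -1.45 for Aldh2 (0.00282).

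From day 4 to day 5 the genotype difference changed by -1.46 for Gm10709 (adjusted p = 0.000269), -0.88 for Rpl29 (5.75e-05), -1.74 for Fbp1 (0.0403), -0.87 for Rps3a3 (0.000447), 0.60 for Aldh2 (0.0332) and -0.92 for the targeted Tcf12 (5.78e-05).

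From day 4 to day 7 it changed away from 0 by 1.69 for Gm14036 (adjusted p = 0.00457), 1.52 for Gdpd3 (0.0178), 0.68 for Gm17511 (0.00619), 0.49 for Rps13-ps1 (0.00136) and 0.68 for Rap1gap2 (0.0338). It also changed away from 0, downwards, by -1.64 for Gm10709 (1.08e-05), -0.64 for Rpl29 (0.000131), -5.87 for Fbp1 (3.26e-05) and -1.17 for Rps3a3 (2.65e-06). Rps3a1 changed towards 0 by -0.28 (0.0441). The targeted genes changed by -1.51 for Tcf3 (0.00647) and -1.58 for Tcf12 (5.45e-08). Cells were unsorted on day 4 and sorted afterwards, so deletion, sorting and time cannot be told apart in these changes.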

How the results depend on the processing

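The day 4 count of 24 was 26 with RLE scaling and 21 with adjustment over chromosomes 1 to 19 only, but 239 without the count filter, 62 with DESeq2, 61 with the letters summed over precursors, 61 in limma voom with the letter as replicate block, 52 in a fit of all 24 culture libraries and 47 with a stromal covariate. Of the 24 genes, all were called with RLE, no filter, DESeq2, the block and the stromal covariate, 23 with summed letters and in the fit of all culture libraries, and 21 with adjustment over autosomes. Nothing in the labels says that letters pair DN1 with DN3 libraries. The deviations of libraries of the same letter had r = -0.36 in floxed and 0.081 in control cells on day 4, 0.19 and -0.16 on day 5, and 0.23 and 0.019 on day 7 (across genes, which are not independent), so the sign was not the same over days and genotypes. Leaving out 1 library gave 12 to 34 on day 4, 658 to 1396 on day 5 (1289), 1458 to 3050 on day 7 (2571), 0 to 87 in DN1, 28 to 626 in DN3, 0 to 554 for the difference between precursors, 1724 to 3543 for the change to day 7 (2249; the highest without DN1 floxed a of day 7) and 177 to 5499 in lung. Those for DN1, DN3 and their difference were added after seeing the data. Day 5 was 1973 without the filter and 1959 with the replicate block, day 7 was 4515 in the fit of all culture libraries, DN1 was 37 and the change to day 5 was 450 (291) with DESeq2. Day 5 moved by over 1.5 times without DN1 floxed b, DN3 floxed b or any control, and day 7 without DN3 floxed b or any control. For none of these was the cause tested, apart from the fewer samples of the smaller fits. In the day 4 alternatives no direction reversed for the 24 genes, Napsa, Aldh2, Tcf3 or Tcf12. For lung and for the difference between precursors, a change of sign was counted only where 1 of the fits passed, and none was found. Of the 24 genes 11 passed in all 16 alternatives (Gm14036, Gdpd3, Gm13841, Rps13-ps1, Rps3a2, Rps3a3, Rpl29, Gm12184, Fbp1, Gm29666 and Gm10709), and Napsa and Aldh2 passed in 4 of 16.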
